A study of Mus musculus with 2 samples.

Results

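The genes described here encode glycoproteins and proteoglycans of the extracellular matrix and the enzymes that modify and cross-link collagen. They are 41 genes chosen by symbol, of which 40 have a row in the deposited table of 16463 genes; Mfap4 was not analysed here. Messenger RNA was measured in unstimulated bone marrow-derived macrophages, which develop from mouse marrow cells during 5 days in medium with serum (10%) and with L929 fibroblast supernatant (10%) as the source of macrophage colony-stimulating factor. The mice are labelled C57BL/6J. The control line, labelled WT, carries Lyz2-Cre, in which the lysozyme M gene drives the Cre recombinase in myeloid cells. The line labelled TKO lacks the mir-106a~363 and mir-106b~25 microRNA clusters and has a floxed mir-17~92 cluster together with Lyz2-Cre, so the third cluster is removed only where that Cre is active. The sources used here do not state the age of the mice or how many mice stand behind each culture.

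Each genotype had 1 library, so the comparison has no replicates and no test was run; intervals cover counting error only, and, with no molecular identifiers, reads of 1 molecule can be counted more than once. The estimated counts summed to 10877915 in WT against 10656455 in TKO. The macrophage label was checked on a list of 10 markers: all 10 were detected, and their summed FPKM (fragments per kilobase, scaled to the size of the library) was 6159 in WT against 7318 in TKO. Csf1r, the receptor for macrophage colony-stimulating factor, was at 975 and 893 FPKM. Mature microRNAs are not measured in polyadenylated RNA, so the deletions themselves were not checked.

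As background, matrix glycoproteins such as fibronectin link cells to collagen fibres, microfibrils of fibrillin carry elastin and latent TGF-beta, and small proteoglycans such as decorin and biglycan bind collagen and growth factors. Collagen chains are hydroxylated in the endoplasmic reticulum, folded with the help of the chaperone HSP47, trimmed by procollagen proteinases and then cross-linked outside the cell by lysyl oxidases. Fibroblasts make most of these proteins, while macrophages are known to make some of them, among them fibronectin, thrombospondin 1 and the TGF-beta-induced protein.

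Most of the matrix genes were at a lower level in the TKO library. Of the 40 genes, 35 had at least 20 counts in 1 library and could be compared. A gene was called lower or higher when its TKO over WT ratio of scaled counts differed by at least 2-fold, with a 95% counting interval that excluded no change. By this size rule 19 genes were lower and 1 was higher, whereas 2.3% of all 11525 genes compared were lower and 2.43% higher. For 7 of the 19 lower genes the whole counting interval lay beyond a 2-fold difference. The median log2 ratio of the 35 genes was -1.02, and that of all genes compared was 0.0042. The ratio lay below 0 for 32 of the 35, against 49.4% of all genes compared. Lama4 was compared only through its count in WT; of the 34 genes with at least 20 counts in both libraries, 18 were lower.

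**Figure D1:**
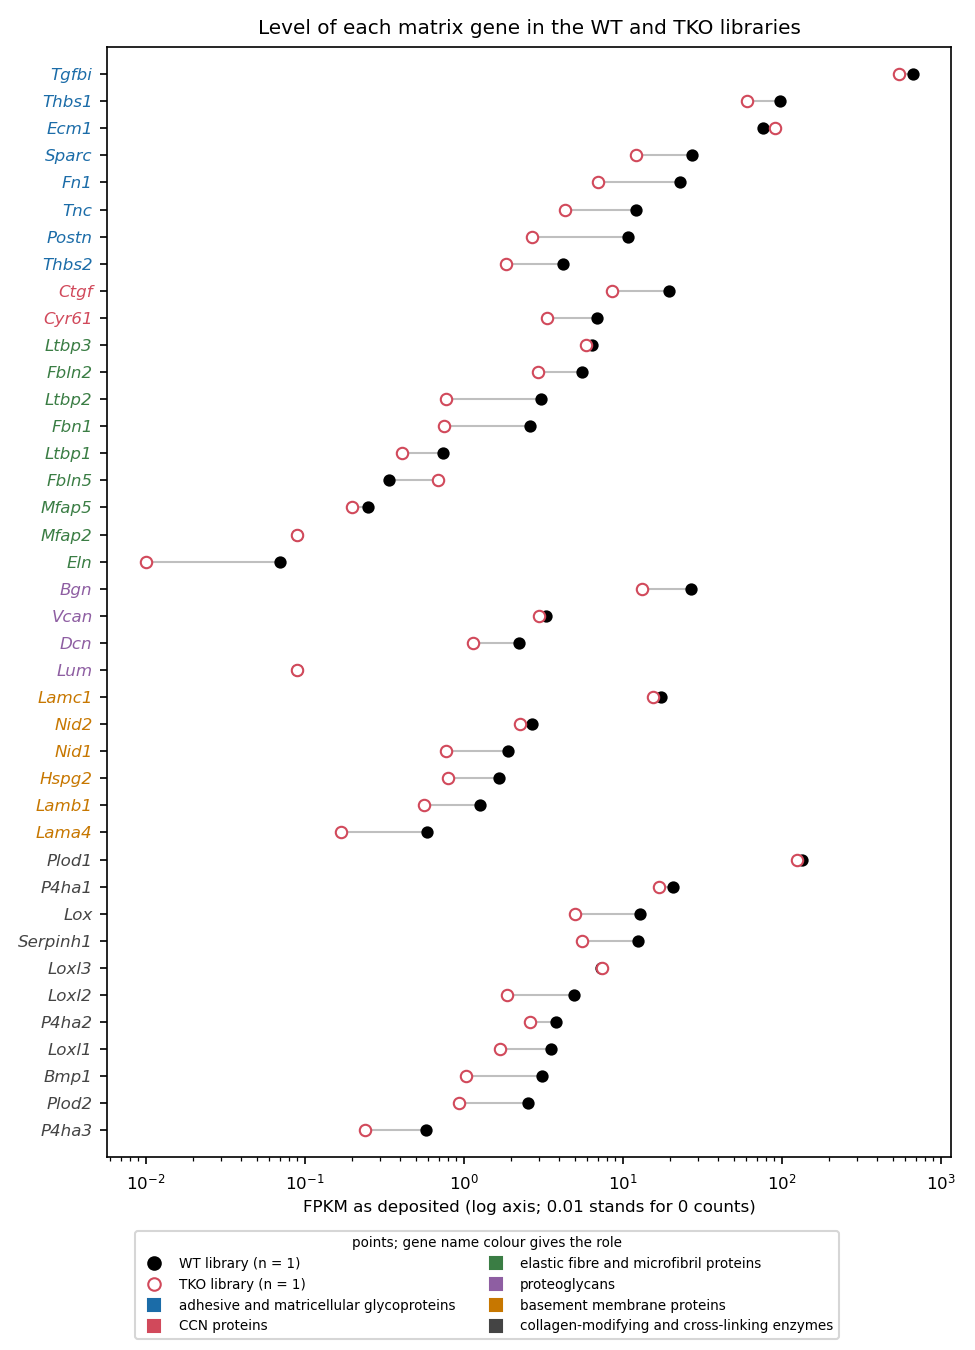
Level of the 40 matrix genes in the WT library (black) and the TKO library (open red), in FPKM on a log axis, with gene names coloured by role and ordered by WT level within a role. Tgfbi stands far to the right in both libraries at 669 and 549 FPKM, and most open points lie to the left of the black ones, with Ecm1 and Fbln5 among the exceptions; the WT points of Mfap2 and Lum lie hidden under equal TKO points.

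The level of the genes spanned a wide range, shown in the plot of levels. Tgfbi alone made up 54.3% of the summed FPKM of the 40 genes in WT and 57.2% in TKO. The remaining 5 genes were too low to compare, with 1 to 15 counts in WT and 0 to 6 in TKO: Lum (the proteoglycan lumican), Eln (elastin), the microfibril genes Mfap2 and Mfap5, and P4ha3, a collagen prolyl hydroxylase subunit. Elastin had 3 counts in WT against 0 in TKO. In a bulk culture fewer cells of a type and less RNA per cell cannot be told apart, and this holds for every difference below.

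**Figure D2:**
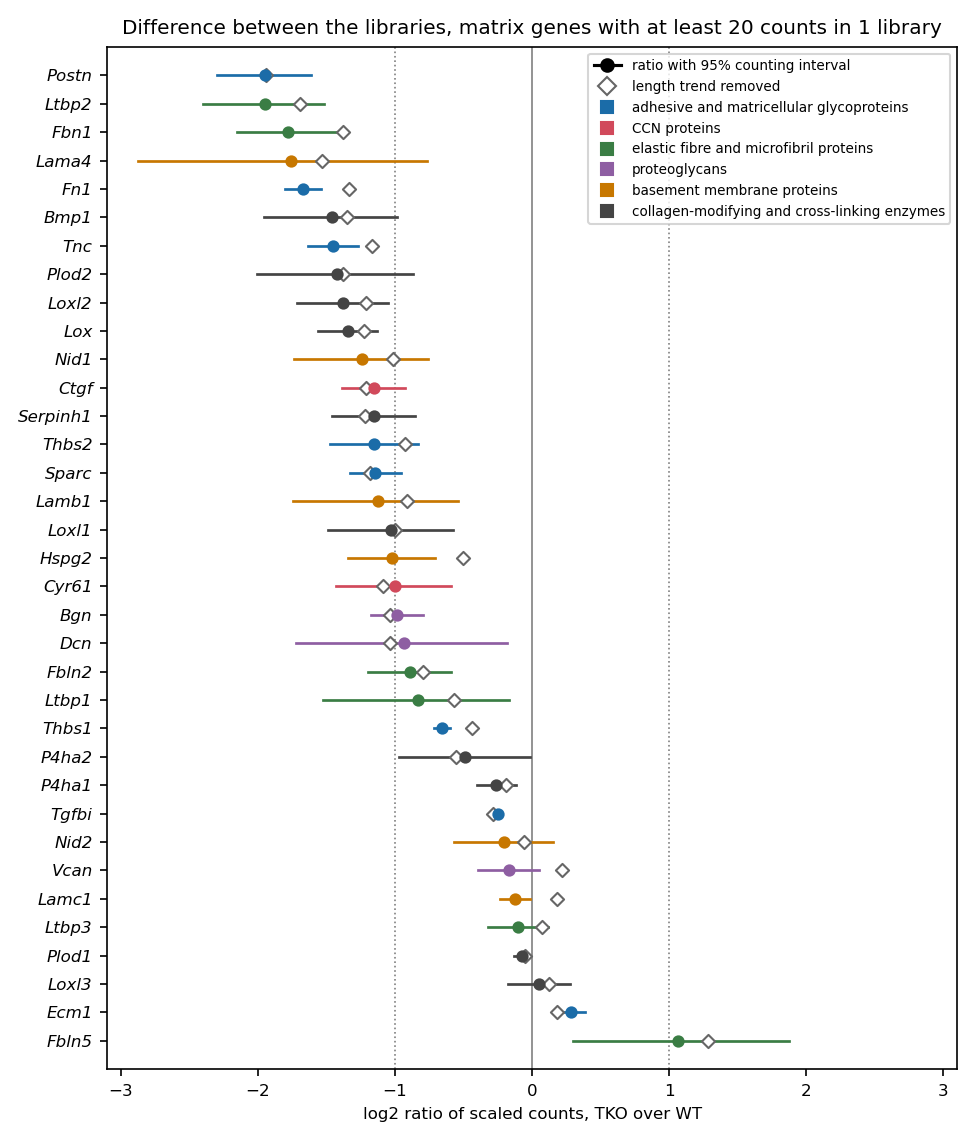
Log2 ratio of scaled counts, TKO over WT, for the 35 matrix genes with at least 20 counts in 1 library; filled points with bars are ratios with 95% counting intervals and open diamonds are ratios after removal of the trend with gene length. The ratios run from -1.95 for Postn to 1.07 for Fbln5, and 29 of the 35 intervals lie wholly below 0.

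Adhesive and matricellular glycoproteins, which connect cells to the matrix or modulate that contact, included 5 lower genes among 8. Fn1, fibronectin (Entrez 14268, chromosome 1, 71585473 to 71653280, GRCm38), had 2059 counts in WT against 619 in TKO, or 23.0 and 6.96 FPKM. The TKO library was 3.18-fold lower (95% counting interval 2.90 to 3.48). Postn, periostin, a binding partner of collagen in connective tissue (Entrez 50706, chromosome 3, 54359267 to 54391041), had 368 and 91 counts. It was 3.86-fold lower (3.06 to 4.92), the lowest ratio among the 35 genes. Tnc, tenascin C, a glycoprotein of remodelling tissue, had 954 and 333 counts and was 2.74-fold lower (2.41 to 3.11).

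Sparc, a collagen-binding glycoprotein also called osteonectin, had 789 and 341 counts and was 2.21-fold lower (1.95 to 2.52). The thrombospondins, which bind cells and matrix and regulate angiogenesis, differed from each other in level and in ratio. Thbs2 had 274 counts in WT against 118 in TKO and was 2.22-fold lower (1.78 to 2.78). Thbs1, at 98.4 FPKM in WT and 60.9 in TKO, had 6341 and 3848 counts and a log2 ratio of -0.66 (-0.71 to -0.60), short of the size rule. The intervals of the pair do not overlap.

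Of the adhesive and matricellular glycoprotein genes, Tgfbi and Ecm1 were nearest to equal levels. Tgfbi, a secreted adhesion protein induced by TGF-beta, had 19557 counts in WT against 15729 in TKO, with a log2 ratio of -0.25 (-0.28 to -0.22). Ecm1, a secreted matrix protein, had 1585 and 1845 counts and a log2 ratio of 0.28 (0.19 to 0.38). With Plod1, described below, and Thbs1 these are the 4 most abundant genes in WT, and none of the 4 passed the size rule. This cut after 4 genes was not set in advance. The next in WT were Sparc at 27.4 FPKM, Bgn at 26.8 and Fn1 at 23.0, of which Sparc and Fn1 were lower.

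Both genes of the CCN family, secreted proteins that bind integrins and growth factors, were lower. Ctgf, connective tissue growth factor (Entrez 14219, chromosome 10, 24595442 to 24598683), had 518 counts in WT against 222 in TKO, or 19.7 and 8.59 FPKM. It was 2.23-fold lower (1.90 to 2.62). Cyr61 had 151 and 72 counts and was 2.00-fold lower (1.504 to 2.69), just inside the size rule with a log2 ratio of -1.003.

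Ctgf and Thbs1 are known targets of microRNAs of the mir-17~92 cluster, so the seeds and the matching sites are shown. MicroRNAs bind messenger RNA through their seed, bases 2 to 8, which is in capitals in the mature sequences from RefSeq (GRCm38.p6), 1 for each of the 4 seed families that the 3 clusters encode; these 4 lie on the plus strand of chromosome 14 between 115043684 and 115044496:
miR-17-5p: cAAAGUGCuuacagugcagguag
miR-18a-5p: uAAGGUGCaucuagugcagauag
miR-19a-3p: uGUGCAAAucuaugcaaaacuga
miR-92a-3p: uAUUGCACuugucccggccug

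The complement of each seed was searched for in the longest 3' UTR that GENCODE annotates for each gene. The sites below, in capitals with their flanking bases, are those of Ctgf, of Thbs1, of 3 of the genes with the lowest ratios that hold one, and of Fbln5, which went the other way:
Ctgf, miR-18 site: ttacatgtttGCACCTTtctagttgaa
Ctgf, miR-19 site: aagttacatgTTTGCACctttctagtt
Thbs1, miR-18 site: cgctggcaatGCACCTTctaaaaacaa
Postn, miR-19 site: cagctaagtcTTTGCACagtaaaaacc
Tnc, miR-19 site: aacgacttccTTTGCACcaaagacaac
Fbn1, miR-25/92 site: cacacagcatGTGCAATacgccaaaat
Fbln5, first miR-18 site: gacagacattGCACCTTtcctgctgaa

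The miR-18 and miR-19 sites of Ctgf overlap, at bases 24598636 to 24598642 and 24598633 to 24598639 of chromosome 10 (GRCm38, plus strand). The site of Thbs1 lies at 118125064 to 118125070 of chromosome 2 and that of Postn at 54390618 to 54390624 of chromosome 3, both on the plus strand. On the minus strand lie those of Tnc (63960251 to 63960257 of chromosome 4), Fbn1 (125300771 to 125300777 of chromosome 2) and Fbln5 (101750642 to 101750648 of chromosome 12). A site of at least 1 of the 4 families was present in 10 of the 35 genes (28.6%), and in 34.0% of the 11049 genes that could be searched. Of the 10, 6 were lower and 1, Fbln5, was higher. Of the 25 genes without a site 13 were lower, and the median log2 ratios were -1.15 with a site and -1.003 without. The 3 genes with a miR-19 site (Postn, Tnc and Ctgf) were all lower, as were 16 of the 32 without one; the site was in 8.57% of the matrix genes and 13.4% of all genes searched. With the 7mer-A1 form of the site, which pairs with bases 2 to 7 and has an A opposite base 1, 2 of 4 genes with a miR-19 site were lower. Of the 4 with a miR-18 site (Thbs1, Ctgf, Fbln5 and Lamc1) 1 was lower and 1 higher. That site was in 11.4% of the matrix genes and 9.30% of all genes searched. Sites of the miR-17 family were in Thbs2 and Lamc1, 5.71% of the matrix genes, and in 14.9% of all genes searched. Sites of the miR-25/92 family were in Fbn1, Bgn and Lox, 8.57% of the matrix genes, and in 7.58% of all genes searched. How many of all genes with a site were lower was not counted. A site is a match of letters, and binding was not measured.

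CCN genes are textbook targets of TEAD factors, the DNA-binding partners of YAP, and the promoter of Cyr61 is shown for that reason. The core motif GGAATG was searched for on both strands from 250 bases before to 50 bases after each RefSeq start. In the Cyr61 window (chr3:145649936-145650235, GRCm38.p6, minus strand) the match is in capitals, as its reverse complement:
Cyr61: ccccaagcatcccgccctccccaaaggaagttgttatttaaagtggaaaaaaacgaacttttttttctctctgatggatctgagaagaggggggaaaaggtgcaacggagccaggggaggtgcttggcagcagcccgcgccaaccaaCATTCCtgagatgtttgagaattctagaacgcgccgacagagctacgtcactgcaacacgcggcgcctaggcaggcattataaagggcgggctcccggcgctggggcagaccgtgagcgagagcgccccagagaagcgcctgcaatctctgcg

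Promoters were supplied for 22 of the 35 genes, and Ctgf was not among them, so its promoter was not searched. Cyr61 and Nid1 held the TEAD core, as did 14.7% of all 32851 promoters and 13.8% of the 9257 genes compared that have a promoter in the table. The AP-1 motif TGACTCA was in 2 of the 22 (Ecm1 and Ltbp3) in 5.202% of all promoters and in 4.46% of those 9257 genes. The core of the hypoxia response element, ACGTG, was in 5 of the 22 (Ltbp1, Ltbp3, P4ha1, P4ha2 and Serpinh1) (22.7%), in 19.6% of all promoters and in 29.8% of those genes. This last motif lies within the E-box CACGTG, which none of the 22 held, against 7.15% of all promoters and 12.02% of those genes. These are matches of letters in 1 window only.

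Genes of elastic fibres and microfibrils were the most divided group. Of 6 that could be compared, 2 were lower and 1 was higher. Fbn1, fibrillin 1, the backbone of microfibrils (Entrez 14118, chromosome 2, 125300594 to 125506485), had 287 counts in WT against 80 in TKO, 2.63 and 0.75 FPKM, and was 3.43-fold lower (2.67 to 4.45). Fbln2, a fibulin of elastic fibres and basement membranes, had 266 and 137 counts and a log2 ratio of -0.89 (-1.20 to -0.59), short of the size rule. Fbln5, a fibulin needed for elastic fibre assembly (Entrez 23876, chromosome 12, 101746565 to 101819119), had 22 and 44 counts and was 2.09-fold higher in TKO (1.23 to 3.67). It was at 0.34 and 0.69 FPKM, a level at which few reads decide the ratio.

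The latent TGF-beta binding proteins of this group also differed among themselves. Ltbp2, which binds fibrillin and, unlike its relatives, does not bind latent TGF-beta, had 222 counts in WT against 55 in TKO and was 3.86-fold lower (2.86 to 5.28). Ltbp1, which tethers latent TGF-beta to the matrix, had 56 and 30 counts and a log2 ratio of -0.84 (-1.53 to -0.17). Ltbp3, which also carries latent TGF-beta, had 368 and 328 counts and a log2 ratio of -0.10 (-0.32 to 0.12). The interval of Ltbp2 overlaps that of Ltbp1 narrowly and does not overlap that of Ltbp3.

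None of the 3 genes of the proteoglycan group that could be compared passed the size rule, although 2 lay just outside it. Hspg2, also a proteoglycan, was lower and is described with the basement membrane genes below. Bgn, biglycan (Entrez 12111, chromosome X, 73483601 to 73495936), had 706 counts in WT against 341 in TKO, 26.8 and 13.2 FPKM, with a log2 ratio of -0.98 (-1.18 to -0.80). Dcn, decorin, had 46 and 23 counts and a log2 ratio of -0.93 (-1.72 to -0.18). Bgn was called lower when the libraries were scaled by their totals, and both genes were when the length trend was removed. Vcan, the large proteoglycan versican, had 364 and 309 counts and a log2 ratio of -0.17 (-0.39 to 0.05), an interval that includes no change and does not reach those of Bgn.

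Basement membrane genes included 4 lower genes of 6. Lama4, the laminin alpha 4 chain of vessel basement membranes, had 39 counts in WT against 11 in TKO and was 3.39-fold lower, with a wide interval (1.70 to 7.33). Lamb1, the laminin beta 1 chain, had 80 and 35 counts and was 2.18-fold lower (1.45 to 3.35). Lamc1, the gamma 1 chain that pairs with both, had 1467 and 1286 counts and a log2 ratio of -0.12 (-0.23 to -0.02). The gamma chain stood at 17.5 FPKM in WT, well above its partners at 0.59 and 1.26 FPKM, and was nearly level between the libraries.

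The nidogens, which join laminin to collagen IV, were at 1.90 and 2.69 FPKM in WT. Nid1 had 126 counts in WT against 51 in TKO and was 2.36-fold lower (1.69 to 3.34). Nid2 had 145 and 120 counts and a log2 ratio of -0.21 (-0.57 to 0.15), and the 2 intervals do not overlap. Hspg2, perlecan, a heparan sulfate proteoglycan, had 261 and 123 counts and was 2.03-fold lower (1.63 to 2.53). Hspg2 has the longest transcript of the 35, and its log2 ratio of -1.02 was -0.50 with the length trend removed.

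Enzymes and chaperones of collagen processing differed between paralogs. Plod2, the lysyl hydroxylase that acts on collagen telopeptides (Entrez 26432, chromosome 9, 92539636 to 92608428), had 104 counts in WT against 37 in TKO and was 2.69-fold lower (1.83 to 4.02). Plod1, the lysyl hydroxylase of the collagen helix, had 4835 and 4398 counts and a log2 ratio of -0.071 (-0.13 to -0.012). The level of Plod1, 135 FPKM in WT against 125 in TKO, was far above that of Plod2, 2.55 and 0.94. The intervals of the ratios lie apart.

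The prolyl 4-hydroxylase subunits, which make the hydroxyproline that stabilises the triple helix, did not pass the size rule. P4ha1 had 924 counts in WT against 737 in TKO, with a log2 ratio of -0.26 (-0.40 to -0.12), and P4ha2 had 94 and 64 counts, with a log2 ratio of -0.49 (-0.97 to -0.016). Serpinh1, which encodes HSP47, the collagen chaperone (Entrez 12406, chromosome 7, 99345375 to 99353239), had 307 and 132 counts and was 2.22-fold lower (1.81 to 2.75). Bmp1, the proteinase that removes the C-terminal propeptide of procollagens and also activates lysyl oxidase, had 144 and 50 counts and was 2.75-fold lower (1.98 to 3.88).

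Of the 4 listed lysyl oxidases, which cross-link collagen and elastin, 3 were lower. Lox (Entrez 16948, chromosome 18, 52516060 to 52529867) had 659 counts in WT against 248 in TKO, 12.9 and 5.03 FPKM, and was 2.54-fold lower (2.19 to 2.95). Loxl2 had 283 and 104 counts and was 2.60-fold lower (2.07 to 3.29). Loxl1, the family member tied to elastic fibres, had 130 and 61 counts and was 2.04-fold lower (1.49 to 2.81). Loxl3 had 327 and 323 counts and a log2 ratio of 0.048 (-0.18 to 0.27), so the fourth listed enzyme was level between the libraries at 7.37 and 7.42 FPKM. Loxl4, a family member outside the listed genes, had 11 counts in WT against 5 in TKO and was too low to compare.

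Other genes of the same pathways were taken from lists, whose counts are read against the 2.3% of all genes that were lower. Of 17 other collagen-processing genes that could be compared, 3 were lower, none was higher and the median log2 ratio was 0.0094. The lower genes were Fkbp10, a collagen chaperone that works with the Plod2 product (126 counts in WT against 39 in TKO, log2 ratio -1.63, -2.18 to -1.10), P3h4 (25 and 11 counts, log2 ratio -1.12, -2.29 to -0.04), and Pcolce, an enhancer of the Bmp1 proteinase (73 and 33 counts, log2 ratio -1.08, -1.72 to -0.47). P3h4 was compared only through its count in WT. Fam20c, a kinase of secreted proteins, had the largest positive ratio, 0.63 (0.53 to 0.74), short of the size rule. P4hb, the shared beta subunit of prolyl 4-hydroxylase and the most abundant of the list at 255 and 273 FPKM, had a log2 ratio of 0.14 (0.09 to 0.18). This list held lower genes beside a median near that of all genes, and the median of the 10 listed processing enzymes that could be compared was -1.09.

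Of 21 other matrix glycoprotein genes 9 were lower and none was higher, with a median log2 ratio of -0.57. Among the 9, Smoc2, Smoc1, Igfbp5 and Svep1 were compared only through their counts in WT. With a minimum of 100 counts, 2 of 11 were lower, against 1.03% of all genes, and the median log2 ratio was -0.27. These 2 were Aebp1 and Lamb2, and Lamb2 (162 counts in WT against 75 in TKO) reached that minimum in WT only. Smoc2, a calcium-binding relative of Sparc, had 48 counts in WT against 10 in TKO, with a log2 ratio of -2.20 (-3.35 to -1.20), Pxdn, the peroxidase that cross-links collagen IV, -1.44 (-2.16 to -0.76), Smoc1 -1.35 (-2.44 to -0.35), and Igfbp5, an insulin-like growth factor binding protein, -1.30 (-2.40 to -0.30). Spp1, osteopontin, a glycoprotein that macrophages make in quantity, was the most abundant at 5379 and 4288 FPKM and had a log2 ratio of -0.29 (-0.30 to -0.27). None of 4 other proteoglycan genes passed the size rule, and their median log2 ratio was 0.11. Among them Omd, osteomodulin, had a log2 ratio of 0.81 (0.28 to 1.35), Srgn, serglycin, the granule proteoglycan of blood cells and the most abundant at 102 and 149 FPKM, 0.59 (0.47 to 0.71), Prg4, lubricin, -0.43 (-1.17 to 0.29) and Cspg4 -0.36 (-0.56 to -0.17).

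Collagen chain genes, the substrates of the enzymes above, were lower in 11 of 17, with a median log2 ratio of -1.59. Among the 11, Col16a1 (41 counts in WT against 13 in TKO) was compared only through its count in WT. Col12a1 had a log2 ratio of -2.51, Col5a3 of -2.21 and Col3a1 of -1.96. Col1a1, the most abundant, was at 43.9 FPKM in WT and 10.8 in TKO, with a log2 ratio of -1.99 (-2.11 to -1.86).

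**Figure D3:**
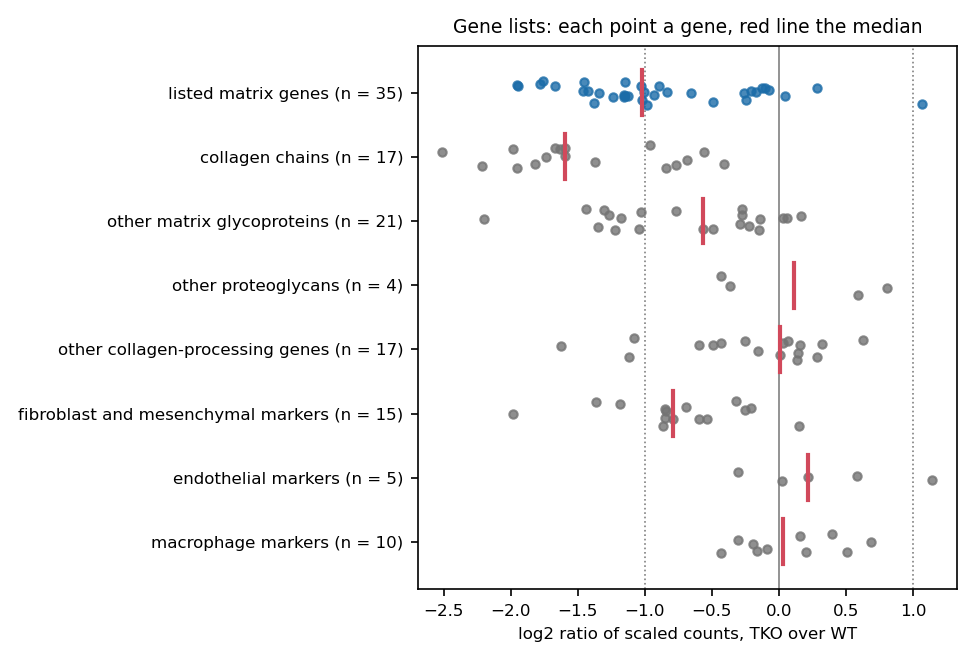
Log2 ratio of scaled counts, TKO over WT, of each gene with at least 20 counts in 1 library (points) and the median (red line) in the listed matrix genes and in 7 other lists, with dotted lines at a 2-fold difference. The medians lie at -1.02 for the listed matrix genes, -1.59 for collagen chains, -0.79 for fibroblast and mesenchymal markers and 0.033 for macrophage markers.

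Markers of other cells that a marrow culture can hold moved with these genes in 1 list. Of 20 fibroblast and mesenchymal markers outside the matrix, 15 could be compared, with a median log2 ratio of -0.79. The ratio lay below 0 for 14 of the 15, against 49.4% of all genes compared, and 3 were lower, against 2.3%. The lower genes were Ddr2, a collagen receptor (58 counts in WT against 14 in TKO, log2 ratio -1.99, -2.94 to -1.12), Pdgfra, a growth factor receptor of mesenchymal cells (35 and 13, log2 ratio -1.36, -2.41 to -0.41), and Cdh11, a cadherin of mesenchymal cells (207 and 87, log2 ratio -1.19, -1.56 to -0.82). Ddr2 and Pdgfra were compared only through their counts in WT, the library where they were high. Myl9, a myosin light chain, had a log2 ratio of -0.87 (-1.52 to -0.24), and Acta2, smooth muscle actin and the most abundant marker, was at 21.2 and 11.5 FPKM with a log2 ratio of -0.85 (-1.05 to -0.65). The summed FPKM of the list was 75.6 in WT and 46.0 in TKO, and no marker of the list was at 0 in either library. The part of these cells in the result was not tested.

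In the other marker lists no gene was lower by the size rule. Macrophage markers had a median log2 ratio of 0.033, with 0 of 10 past the size rule in either direction. The largest ratios were those of Fcgr1 at 0.68, Ctss at 0.51, Adgre1 at -0.43 and Cd68 at 0.39, and Ctss was the most abundant at 2418 and 3355 FPKM. Of 5 endothelial markers 1 was higher, against 2.43% of all genes compared, and the median was 0.22. It was Kdr, a receptor for vascular endothelial growth factor (150 and 317 counts, log2 ratio 1.15, 0.86 to 1.44). Vwf, the most abundant, had 0.58, Emcn -0.31 and Cdh5 0.22. The adipocyte markers that could be compared, Lpl and Fabp4, had log2 ratios of -0.50 and 0.53, and Pf4, the 1 megakaryocyte marker past the count minimum, had -0.20.

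Gene length moved with the ratio over the whole table and the matrix genes are long, so both were set side by side. Spearman's rho between length and log2 ratio was -0.45 over the 11525 genes, which are not independent replicates. The median length was 4586 bases for the 35 matrix genes and 2859 bases for all genes compared. Of the genes of at least 4280 bases, the longest of 4 groups of nearly equal size, 3.95% were lower, and 12 of the 20 matrix genes of that length were. Between 1838 and 2859 bases 1.84% of all genes and 4 of 9 matrix genes were lower.

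**Figure D4:**
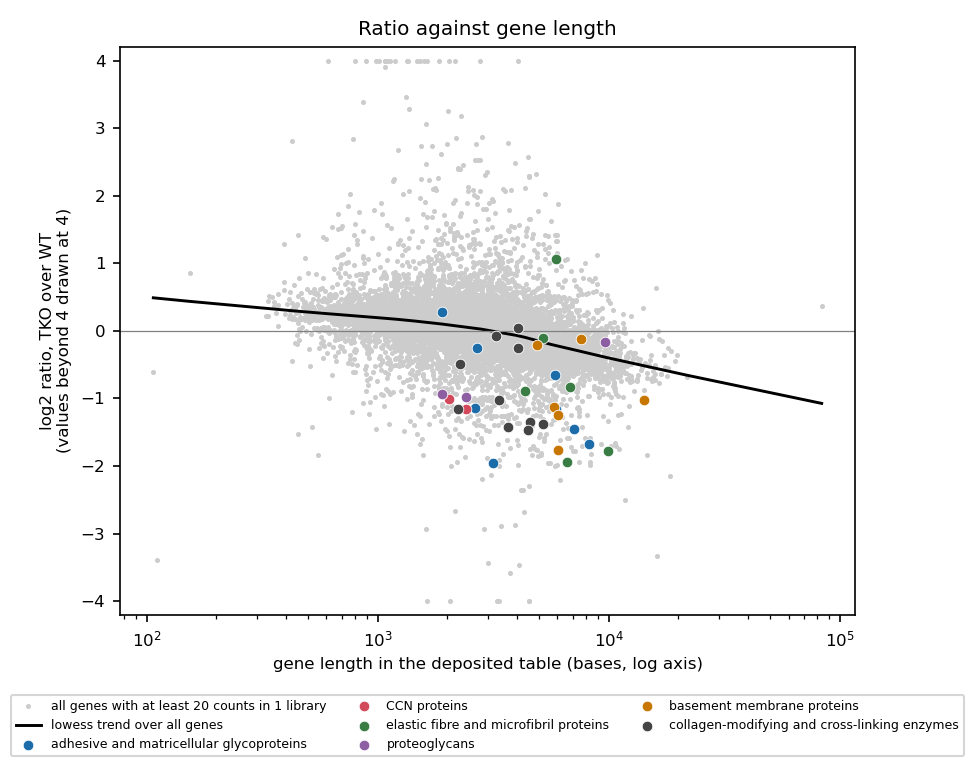
Log2 ratio of scaled counts, TKO over WT, against gene length in bases on a log axis for the 11525 genes compared (grey), their lowess trend (black line) and the 35 matrix genes coloured by role; values beyond 4 are drawn at 4. The trend falls with length, and 29 of the 35 matrix genes lie below it.

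With the length trend removed from every gene, 18 matrix genes were lower and 1 was higher, against 2.08% and 2.34% of all genes, and the median log2 ratio of the matrix genes was -1.004. Of the 19 genes lower without this step, 16 were lower with it. Thbs2, Lamb1 and Hspg2 were no longer called, with log2 ratios of -0.93, -0.92 and -0.50, and Dcn and Bgn were gained, with -1.03 and -1.04. Fn1 moved from -1.67 to -1.33, Fbn1 from -1.78 to -1.38 and Postn from -1.95 to -1.94. The ratios of Vcan, Lamc1 and Ltbp3 changed sign to 0.22, 0.18 and 0.070.

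Summed over the 40 genes, WT had 44883 counts and TKO 32357, or 0.413% and 0.304% of each library, a log2 ratio of -0.41 (-0.43 to -0.39). Without Tgfbi the sums were 25326 and 16628, a log2 ratio of -0.54 (-0.57 to -0.51). The abundant genes with small differences weigh most in these sums, which were added after the values were seen. At 10 FPKM or more in 1 library, 7 of 14 matrix genes were lower, against 0.499% of 6409 genes. Of these 7, Fn1, Postn, Tnc, Ctgf, Serpinh1 and Lox reached 10 FPKM in WT only. Among the matrix genes at 10 FPKM or more in both libraries, only Sparc was lower. At 1 to 10 FPKM, 11 of 18 were lower, against 3.37% of 4572 genes. Of these 11, Fbn1, Ltbp2, Nid1, Lamb1, Hspg2 and Plod2 reached 1 FPKM in WT only. Under 1 FPKM, 1 of 3 was lower, against 14.5% of 544 genes.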

How the data were processed

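Polyadenylated RNA of 1 WT and 1 TKO culture was sequenced. The tools named per the submitters' processing notes are RSEM 1.2.12, HISAT2 2.0.4 and Bowtie2 2.2.5, with the mm10 build; no header or label used here gives the role of each tool, the gene annotation or any filter. Deposited expected counts, estimated reads per gene, were rounded to whole numbers (non-whole values made up 21.3% in WT and 21.1% in TKO). The deposited FPKM values list a gene at 0 counts at 0.01. The authors' log2 ratio, p-value and FDR (a score here, as some values exceed 1) were not used. 0 columns of per-sample values went unmatched.

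Counts were scaled by TMM factors (1.01 and 0.988; edgeR 4.0.16, R 4.3.3). The 95% interval of a ratio is the exact conditional binomial (Clopper-Pearson) interval. The size rule took a 2-fold difference, an interval excluding 0 and at least 20 counts in 1 library. On simulated counts for TKO against WT over 16463 genes, it called 99 of 100 genes lowered by 1.5 on the log2 scale, 0 of 100 lowered by 0.5 and 31 of 11254 unchanged genes. With 1 library per genotype, variation between cultures could not be estimated, so these are not error rates of the rule on the real data. The length trend was a lowess fit (statsmodels 0.14.6, span 0.3). GENCODE M21 gave 3' UTRs, and RefSeq on GRCm38.p6, the assembly behind mm10, gave coordinates, promoters and microRNAs; 16426 genes matched by Entrez identifier.

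All listed genes were named; in other lists up to 4 genes with the largest absolute ratio and the most abundant were named, and genes beyond these were chosen after their values were seen. The genes and lists were chosen with earlier results of these data known. Alternatives were other scalings (library totals, DESeq2 1.42.0 size factors), units, count minimums, thresholds and intervals, and removal of the length trend.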

Additional observations from a re-analysis of the deposited data

How the results depend on the processing

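The number of matrix genes lower in TKO was 19, and 20 with library totals, DESeq2 size factors or the ratio of deposited FPKM, where Bgn was added. It was 18 with the length trend removed (2.08% of all genes), 19 with no minimum (2.19%) and 19 with a 99% interval (1.93%). With a minimum of 100 counts in 1 library it was 17 of 29, against 1.03% of all genes. Of these 17, Postn, Fbn1, Cyr61, Ltbp2, Nid1, Plod2, Bmp1 and Loxl1 reached 100 counts in WT only. The number was 24 at 1.5-fold (5.54% of all genes), 5 at 3-fold (0.738%) and 11 with log2 of FPKM plus 1 (1.08% of 11297 genes). The last setting changed both the unit and the minimum, which was 1 FPKM in 1 library; 32 matrix genes passed it, and Fbln5, Ltbp1 and Lama4 did not. The higher gene, Fbln5, was 1 in all but 3 of these settings: the number was 0 with a minimum of 100 counts, at 3-fold and with log2 of FPKM plus 1. The median log2 ratio ran from -1.06 with the ratio of FPKM to -0.75 with log2 of FPKM plus 1. Of the 35 single ratios, 34 stayed within their 95% counting interval with library totals and 26 did with the length trend removed. Of the lower genes, 16 were lower under all 3 scalings, with FPKM ratios and with the length trend removed. With all annotated 3' UTRs the same 10 genes held a microRNA site. With 7mer-A1 sites 10 genes held one, but Thbs2, Tnc, Ctgf and Fbln5 gave way to Plod2, P4ha1, Loxl2 and Loxl3; 5 of these 10 were lower and 0 higher. No library could be left out, since each genotype has 1. No paired analysis was possible because each genotype has 1 library. Depth limits the low genes: Fbln5, with 22 and 44 counts, had an interval of 1.23-fold to 3.67-fold, and 5 genes with at most 15 counts were not compared.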
